A study of Oryctolagus cuniculus with 9 samples.

Results

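The genes described here encode the secreted WNT ligands, the frizzled receptors and co-receptors that bind them, the R-spondins and LGR receptors that strengthen the signal, the secreted WNT antagonists, and the AXIN and TCF/LEF proteins that act inside the cell. The genes were chosen with earlier results of these data known. They were matched by a rule on the symbol: WNT, FZD, SFRP, DKK or RSPO followed by a digit, TCF7 and its relatives, and LGR4, LGR5, LGR6, LRP5, LRP6, ROR1, ROR2, AXIN1, AXIN2, LEF1 and WIF1. The rule found 53 of the 20525 genes in the deposited table. These were 18 WNT ligands, 9 frizzled receptors, 4 co-receptors, 7 genes of the R-spondins and LGR receptors, 9 secreted antagonists and 6 intracellular genes. NOTUM and WNT7B were not analysed here.

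Polyadenylated RNA was sequenced from rabbit vocal folds in 3 groups of 3 libraries each. The SOT folds had been injured and given a hydrogel named SOT, an antioxidant adhesive hydrogel by the title of the study, whose name the labels do not expand. The untreated folds had been injured and received no treatment, and the normal folds were not injured. Both injured groups were taken 1 week after injury. Strain, age and sex were not given in the labels, and the labels do not say that the libraries of a group came from separate animals. Each p-value is set by differences between libraries, which may not be differences between animals. Between libraries of a group these exceeded counting noise. The squared difference over its counting variance averaged 57.2 to 374 over genes with a mean count of 50 or more. The labels name vocal cord histiocytes as the cell type, but the muscle creatine kinase gene CKM stood between 1691 and 2195 FPKM (counts scaled to gene length and library size) in the normal folds against 18.5 to 25.5 FPKM for the macrophage gene CD68, and the libraries were read as whole tissue. Less RNA per cell and fewer cells of a type cannot be told apart in such samples.

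WNT proteins are lipid-modified signals that act over short distances. In the β-catenin branch a ligand joins a frizzled receptor to LRP5 or LRP6, the AXIN-based complex that destroys β-catenin is held back, and β-catenin with TCF/LEF factors switches on targets such as AXIN2. R-spondins bound to LGR receptors remove the ubiquitin ligases ZNRF3 and RNF43, which otherwise clear frizzled receptors from the cell surface. SFRP proteins and WIF1 bind WNT ligands, and several DKK proteins bind LRP5 and LRP6. WNT5A typically signals without β-catenin, through ROR receptors, and is known for roles in wound repair and fibrosis. The pathway is also known for its part in cartilage, which lies beside the vocal fold in the larynx.

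Total counts were between 44755718 and 50338111 per library, and 17344 genes passed the filter on low counts, 51 of the 53 among them. RSPO4 and WNT3 did not pass it. Averaged over the 9 libraries, 13 of the 53 stood at 10 FPKM or more, 23 between 1 and 10 FPKM and 17 below 1 FPKM. Levels below are in FPKM. The tests used counts, with edgeR's quasi-likelihood test and Benjamini-Hochberg adjustment over all 17344 genes, and a gene is said to have risen or fallen where its adjusted p was under 0.05. Fold changes are on the log2 scale and intervals cover 95%. Both injured groups were set against the same normal libraries, so the comparisons with normal folds are not independent of each other. Positions are those of whole genes on the build OryCun2.0.

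Untreated folds were set against normal folds to ask which genes of the pathway differed 1 week after injury. The secreted antagonist WIF1 was 28.8-fold lower in untreated folds, and the R-spondin RSPO3, the receptor FZD9 and the antagonist SFRP5 were 7.98-fold, 10.1-fold and 5.58-fold lower. The ligand WNT5A and the transcription factor LEF1 were 2.88-fold and 5.85-fold higher. Of the 51 genes tested, 5 rose (9.80%) and 15 fell (29.4%). Over all genes tested 32.8% passed, 17.7% higher and 15.1% lower. The median log2 fold change was -0.37 over the 51 genes and -0.02 over all genes. At an unadjusted p under 0.05 there were 25 of the 51, against 44.7% of all genes. Of the 20 calls, 10 held in all 17 alternative analyses, those for WIF1, FZD8, FZD9, LEF1, WNT5A, WNT6, SFRP5, DKK3, AXIN2 and WNT10A, and the libraries on which the other 10 rested are named below.

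SOT folds were set against normal folds in the same way. DKK3, LEF1 and WNT5A rose and FZD4, FZD8, FZD9, SFRP5, WIF1 and WNT6 fell, against the same normal libraries as above. These 3 higher and 6 lower genes were 17.6% of the 51, near the 16.7% of all genes that passed (9.01% higher, 7.67% lower). The median log2 fold change was -0.22 over the 51 genes and 0.02 over all genes. At an unadjusted p under 0.05 there were 15 of the 51, against 33.7% of all genes. The calls for WIF1, FZD8, FZD9, LEF1, WNT6 and SFRP5 held in all 17 alternatives.

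SOT folds were set against untreated folds to ask whether the hydrogel moved these genes. None of the 51 passed by edgeR, where 0.0115% of all genes passed, none higher (0.0%) and 2 lower. At an unadjusted p under 0.05 there were 11 of the 51, against 12.6% of all genes. By DESeq2, 4 of the 51 passed: WNT5A and ROR2 lower, and AXIN2 and SFRP4 higher. Among the 17344 genes that passed the filter, DESeq2 called 229 higher and 453 lower. The median log2 fold change was 0.08 over the 51 genes and 0.01 over all genes.

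**Figure D1:**
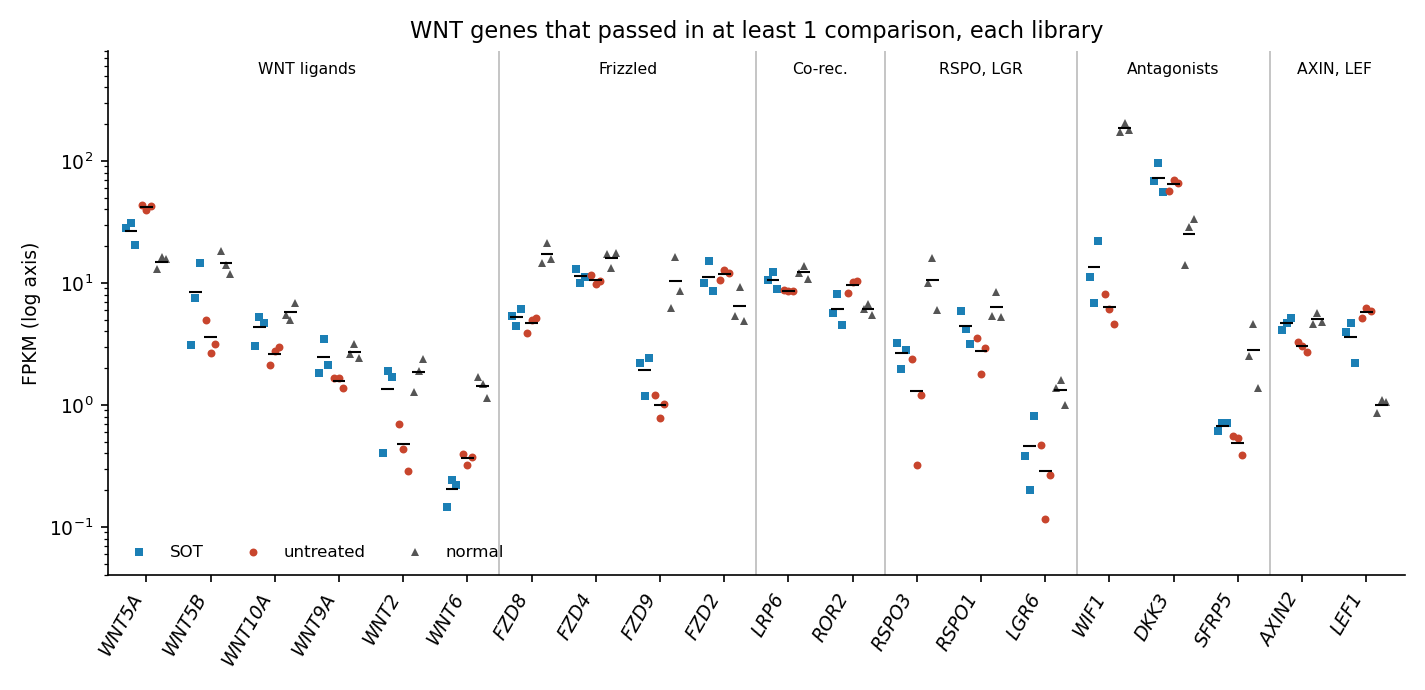
FPKM on a log axis of the 20 WNT genes that passed in at least 1 comparison, ordered by role, with 1 point per library (SOT squares, untreated circles, normal triangles) and bars at the means of 3 libraries. WIF1 stands between 173 and 205 FPKM in the normal folds and at 22.2 FPKM or less in every injured fold, while WNT5A and LEF1 are lowest in the normal folds.

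Among the ligands, WNT5A (chromosome 9, 22336019 to 22345730) had the highest mean level in both injured groups. It stood at 28.3, 31.3 and 20.6 FPKM in SOT folds, 43.8, 39.5 and 43.0 FPKM in untreated folds and 12.9, 16.4 and 15.7 FPKM in normal folds. The 3 groups did not overlap, and the SOT libraries lay between the others. WNT5A rose in untreated folds against normal folds (log2 fold change 1.52 with SE 0.17, adjusted p = 0.000921) and in SOT folds against normal folds (log2 fold change 0.73 with SE 0.17, adjusted p = 0.0246). The SOT call was lost without untreated replicate 3, SOT replicate 1 or 2 or normal replicate 1, 2 or 3 (adjusted p = 0.0502, 0.0631, 0.0774, 0.0861, 0.0528 and 0.0568), or with the 2 groups alone in the fit (adjusted p = 0.0731). Of the 51 genes, WNT5A had the smallest adjusted p in SOT folds against untreated folds, 0.162, with a log2 fold change of -0.79 and an interval of -1.18 to -0.40. The adjusted p was between 0.102 and 0.575 over the fits that left out 1 library, and 0.00552 by DESeq2.

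The closest relative of WNT5A, WNT5B (chromosome 8, 36029358 to 36150946), went the other way in untreated folds. Its levels were 3.10, 7.47 and 14.5 FPKM in SOT folds, 4.92, 2.67 and 3.18 FPKM in untreated folds and 18.4, 14.0 and 11.8 FPKM in normal folds. The untreated libraries lay below all the normal ones, and the SOT libraries spread over both. WNT5B fell in untreated folds (log2 fold change -2.0 with SE 0.50, adjusted p = 0.0170) and did not pass in SOT folds (log2 fold change -0.94 with SE 0.48, adjusted p = 0.208), where SOT replicate 3 was the highest SOT library. The call in untreated folds was lost without untreated replicate 2 or 3 or normal replicate 1 (adjusted p = 0.0665, 0.0697 and 0.0544), and WNT5B passed as lower in SOT folds without SOT replicate 3 (adjusted p = 0.0443, within a range of 0.0443 to 0.424 over the fits that left out 1 library).

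WNT6 and WNT10A are neighbours on chromosome 7 (160131267 to 160134346 and 160141378 to 160153020), 7031 bases apart on the same strand, and both encode ligands of the β-catenin branch that are known from epithelia. WNT6 had 0.144, 0.244 and 0.221 FPKM in SOT folds, 0.392, 0.322 and 0.377 FPKM in untreated folds and 1.70, 1.49 and 1.13 FPKM in normal folds. Every injured fold lay below every normal fold, with the SOT libraries lowest. WNT6 fell in untreated folds (log2 fold change -1.93 with SE 0.34, adjusted p = 0.00464) and in SOT folds (log2 fold change -2.90 with SE 0.36, adjusted p = 0.00422). WNT10A had 3.05, 5.24 and 4.70 FPKM in SOT folds, 2.12, 2.76 and 2.96 FPKM in untreated folds and 5.45, 4.92 and 6.85 FPKM in normal folds. Its untreated libraries lay below both other groups, which overlapped. WNT10A fell in untreated folds (log2 fold change -1.10 with SE 0.23, adjusted p = 0.00813) and did not pass in SOT folds (log2 fold change -0.52 with SE 0.22, adjusted p = 0.142), and its difference between SOT and untreated folds did not pass (log2 fold change 0.58 with SE 0.22, adjusted p = 0.337).

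WNT2 (chromosome 7, 27896473 to 27940607), a ligand of the β-catenin branch known from lung development, stood at 0.404, 1.9 and 1.71 FPKM in SOT folds, 0.701, 0.434 and 0.288 FPKM in untreated folds and 1.28, 1.91 and 2.37 FPKM in normal folds. The untreated libraries lay below the normal ones, and SOT replicate 1 lay with the untreated libraries while SOT replicates 2 and 3 lay with the normal ones. WNT2 fell in untreated folds (log2 fold change -1.92 with SE 0.57, adjusted p = 0.0332). This call was lost without untreated replicate 2 or 3 or normal replicate 2 or 3 (adjusted p = 0.103, 0.115, 0.0741 and 0.0842), or with the replicate number as a block (adjusted p = 0.0713). WNT9A (an unplaced scaffold), a ligand known from joint formation, had 1.82, 3.5 and 2.14 FPKM in SOT folds, 1.65, 1.67 and 1.38 FPKM in untreated folds and 2.61, 3.14 and 2.41 FPKM in normal folds. WNT9A fell in untreated folds (log2 fold change -0.76 with SE 0.24, adjusted p = 0.0399), whose libraries lay below all others, and the call was lost without untreated replicate 1, 2 or 3 or normal replicate 1, 2 or 3 (adjusted p = 0.0758, 0.0864, 0.136, 0.0840, 0.116 and 0.0581), or with limma on log2(FPKM + 1) (adjusted p = 0.0507).

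The other ligands did not pass in any comparison in the fit over all 9 libraries. WNT11, which acts mainly without β-catenin, was between 7.43 and 30.4 FPKM in SOT folds, between 11.6 and 15.2 FPKM in untreated folds and between 13.6 and 20.8 FPKM in normal folds, and WNT4 was between 4.80 and 11.7 FPKM in SOT folds, between 6.23 and 7.03 FPKM in untreated folds and between 7.65 and 16.5 FPKM in normal folds. In both genes SOT replicate 3 was the highest SOT library. Without that library WNT4 passed as lower in SOT against normal folds (adjusted p = 0.0474, within a range of 0.0474 to 0.678 over the 17 alternatives). WNT10B, WNT7A, WNT8A, WNT8B, WNT2B, WNT1 and WNT3A stood at or below 1.28 FPKM in every library. Of these, WNT7A passed as higher in untreated against normal folds with the 2 groups alone in the fit (adjusted p = 0.0249) and without SOT replicate 1 (adjusted p = 0.0449), within a range of 0.0249 to 0.325 over the 17 alternatives. WNT16 and WNT9B had fitted differences of over 2 on the log2 scale without passing. WNT16 was between 0.0495 and 0.405 FPKM in SOT folds, between 0 and 0.0657 FPKM in untreated folds and between 0.0705 and 0.436 FPKM in normal folds, and WNT9B was between 0 and 0.187 FPKM in SOT folds, between 0.0840 and 0.242 FPKM in untreated folds and between 0 and 0.0269 FPKM in normal folds. In untreated against normal folds WNT16 had a log2 fold change of -2.74 (95% interval -5.56 to 0.09, adjusted p = 0.121) and WNT9B one of 3.31 (95% interval -0.17 to 6.79, adjusted p = 0.127), and both intervals included 0. WNT16 passed with the replicate number as a block (adjusted p = 0.0301) and WNT9B with the 2 groups alone in the fit (adjusted p = 0.0335). Over the 17 alternatives the adjusted p was between 0.0301 and 0.399 for WNT16 and between 0.0335 and 0.266 for WNT9B. WNT3, between 0.0207 and 0.0511 FPKM in SOT folds, between 0 and 0.0149 FPKM in untreated folds and between 0 and 0.0699 FPKM in normal folds, was not tested. A partial locus described as Wnt-2b-like lies outside the rule, so reads of WNT2B may be split between the loci.

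Summed over the 18 ligands, the level came to 72.4 ± 18.2 FPKM in SOT folds, 74.1 ± 4.26 FPKM in untreated folds and 71.5 ± 7.45 FPKM in normal folds (SD, n = 3 each). WNT5A made up 39.3% ± 15.3 in SOT folds, 56.8% ± 0.321 in untreated folds and 21% ± 2.46 in normal folds. WNT5B made up 10.7% ± 5.34 in SOT folds, 4.80% ± 1.35 in untreated folds and 21% ± 6.60 in normal folds, and WNT11 24.0% ± 10.1 in SOT folds, 18.4% ± 1.49 in untreated folds and 23.3% ± 2.75 in normal folds. In SOT replicate 1 the share of WNT5A was 53.7%, against 23.3% in SOT replicate 3. These shares describe the libraries and were not tested.

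**Figure D2:**
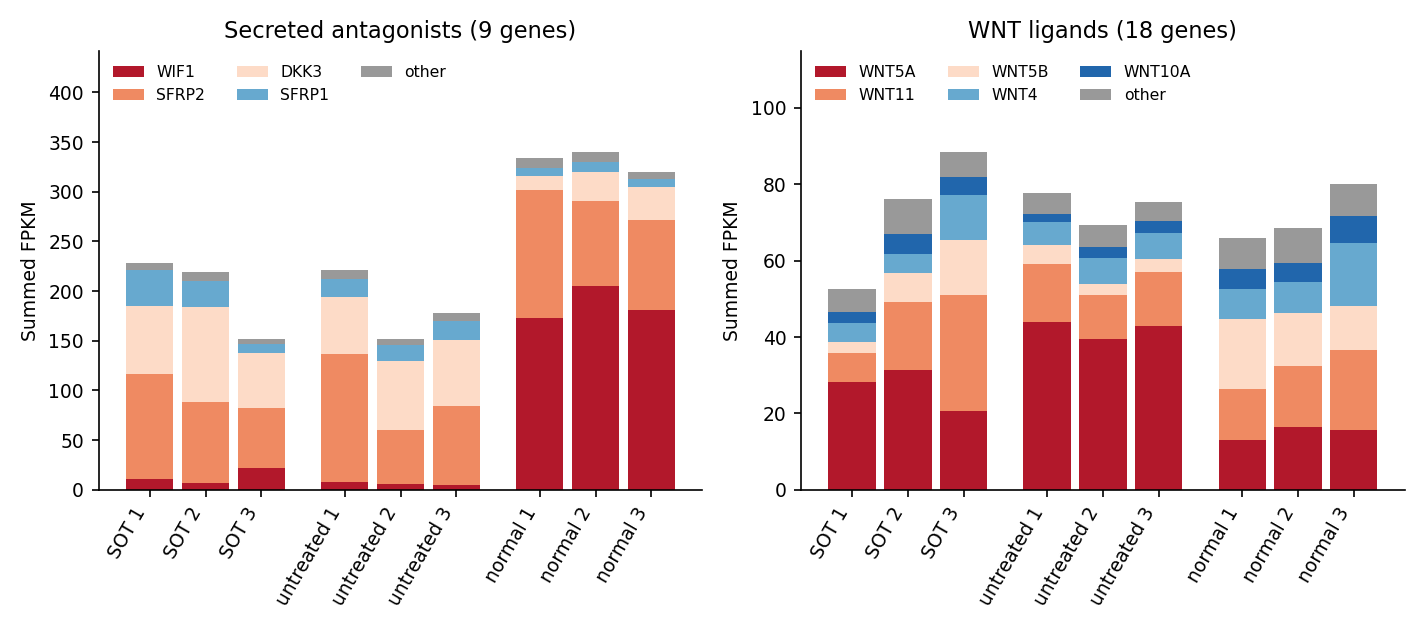
Stacked bars of summed FPKM in each library for the 9 secreted antagonists (left) and the 18 WNT ligands (right), with the genes of highest level in colour and the rest in grey; libraries run SOT, untreated, normal. WIF1 fills at least 51.7% of the antagonist bar in each normal fold and at most 14.7% in each injured fold, and WNT5A fills the larger part of the ligand bar in each untreated fold.

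Of the 9 frizzled receptors, FZD2 rose and FZD4, FZD8 and FZD9 fell in untreated folds, and FZD4, FZD8 and FZD9 fell in SOT folds. FZD8 (on an unplaced scaffold) had 5.40, 4.41 and 6.08 FPKM in SOT folds, 3.86, 5.00 and 5.14 FPKM in untreated folds and 14.5, 21.2 and 15.8 FPKM in normal folds. All injured folds lay below all normal folds, and the injured groups overlapped. FZD8 fell 3.58-fold in untreated folds (log2 fold change -1.84 with SE 0.21, adjusted p = 0.000933) and 3.48-fold in SOT folds (log2 fold change -1.80 with SE 0.21, adjusted p = 0.00348). FZD9 (on an unplaced scaffold), a receptor known from bone and muscle, stood at 2.21, 1.19 and 2.44 FPKM in SOT folds, 1.20, 0.777 and 1.01 FPKM in untreated folds and 6.20, 16.3 and 8.62 FPKM in normal folds. Again no injured library reached the lowest normal one. FZD9 fell in untreated folds (log2 fold change -3.34 with SE 0.43, adjusted p = 0.00148) and in SOT folds (log2 fold change -2.51 with SE 0.42, adjusted p = 0.00899).

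FZD4 (chromosome 1, 129790800 to 129799807), which is also the receptor for Norrin in vessels, had 13.0, 9.99 and 11.2 FPKM in SOT folds, 11.5, 9.88 and 10.5 FPKM in untreated folds and 17.1, 13.4 and 17.5 FPKM in normal folds. It fell by less, with every injured library below every normal one, in untreated folds (log2 fold change -0.56 with SE 0.15, adjusted p = 0.0253) and in SOT folds (log2 fold change -0.59 with SE 0.15, adjusted p = 0.0351). The call in untreated folds was lost without untreated replicate 2 or 3 or normal replicate 1 or 3 (adjusted p = 0.0908, 0.0890, 0.0811 and 0.0581). The call in SOT folds was lost without untreated replicate 2 or 3, SOT replicate 2 or 3 or normal replicate 1 or 3 (adjusted p = 0.0535, 0.0660, 0.0983, 0.0681, 0.110 and 0.0817), or with the 2 groups alone in the fit (adjusted p = 0.0845). FZD2 (chromosome 19, 44786696 to 44800038), a receptor through which WNT5A can act, had 9.94, 15.1 and 8.56 FPKM in SOT folds, 10.7, 12.6 and 12.1 FPKM in untreated folds and 5.38, 9.28 and 4.87 FPKM in normal folds. Its untreated libraries lay above the normal ones, and the SOT libraries overlapped with both groups. FZD2 rose in untreated folds (log2 fold change 0.89 with SE 0.29, adjusted p = 0.0443). That call was lost without untreated replicate 1, 2 or 3, SOT replicate 1 or normal replicate 1 or 3 (adjusted p = 0.0668, 0.123, 0.112, 0.0678, 0.132 and 0.144), or with RLE size factors (adjusted p = 0.0533) or with upper-quartile scaling (adjusted p = 0.0735).

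FZD1, the frizzled receptor with the highest mean level over the 9 libraries, had 19.0, 28.8 and 20.8 FPKM in SOT folds, 21.8, 21.8 and 22.7 FPKM in untreated folds and 18.9, 23.6 and 21.1 FPKM in normal folds. The groups overlapped, with log2 fold changes of 0.09 (95% interval -0.25 to 0.44, adjusted p = 0.667) in untreated against normal folds and 0.00 (95% interval -0.34 to 0.35, adjusted p = 0.996) in SOT against normal folds. FZD6 was between 15.3 and 22.9 FPKM in SOT folds, between 13.6 and 17 FPKM in untreated folds and between 12.3 and 17.3 FPKM in normal folds, and FZD7 between 3.15 and 6.64 FPKM in SOT folds, between 4.28 and 6.09 FPKM in untreated folds and between 4.66 and 6.22 FPKM in normal folds. FZD5 and FZD3 stood between 0.359 and 1.73 FPKM, and neither passed. FZD5 passed as lower in untreated folds by DESeq2 (adjusted p = 0.0196) and by limma on log2(FPKM + 1) (adjusted p = 0.0469), within a range of 0.0196 to 0.268 over the 17 alternatives. Summed over the 9 receptors, the level came to 78.9 ± 9.47 FPKM in SOT folds, 72.6 ± 3.44 FPKM in untreated folds and 94.0 ± 9.70 FPKM in normal folds. FZD8 made up 6.85% ± 1.73 in SOT folds, 6.41% ± 0.683 in untreated folds and 18.1% ± 1.84 in normal folds.

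Among the co-receptors, LRP5 and LRP6 serve the β-catenin branch, and ROR1 and ROR2 are tyrosine kinase-like receptors of WNT5A. LRP6 (chromosome 8, 27457390 to 27632824) had 10.5, 12.2 and 8.95 FPKM in SOT folds, 8.77, 8.58 and 8.55 FPKM in untreated folds and 12, 13.8 and 10.8 FPKM in normal folds. The untreated libraries lay below both other groups. LRP6 fell in untreated folds (log2 fold change -0.47 with SE 0.14, adjusted p = 0.0352), a call that was lost without untreated replicate 1, 2 or 3, SOT replicate 1 or normal replicate 1 or 2 (adjusted p = 0.0740, 0.0989, 0.113, 0.0535, 0.0844 and 0.109). LRP5 had 19.5, 19.9 and 15.7 FPKM in SOT folds, 14.7, 16.6 and 17.1 FPKM in untreated folds and 21.5, 21.6 and 21.1 FPKM in normal folds. All its injured libraries lay below the normal ones by a small margin. It missed the threshold in untreated folds (log2 fold change -0.38 with SE 0.13, adjusted p = 0.0503) and passed there in 7 of the 17 alternatives, among them DESeq2 (adjusted p = 0.0176), within a range of 0.0170 to 0.139 over the fits that left out 1 library.

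ROR2 (chromosome 1, 76258497 to 76467994) had 5.63, 8.18 and 4.51 FPKM in SOT folds, 8.24, 10.2 and 10.3 FPKM in untreated folds and 6.15, 6.77 and 5.45 FPKM in normal folds. The untreated libraries were the highest in every case, and the SOT and normal libraries overlapped. ROR2 rose in untreated folds (log2 fold change 0.68 with SE 0.22, adjusted p = 0.0423) and did not pass in SOT folds (log2 fold change -0.11 with SE 0.22, adjusted p = 0.764). The difference between SOT and untreated folds was -0.79 (95% interval -1.29 to -0.30, adjusted p = 0.223), and DESeq2 gave an adjusted p of 0.0475, within a range of 0.0475 to 0.685 over the 17 alternatives. The call in untreated folds was lost without untreated replicate 2 or 3, SOT replicate 1 or normal replicate 1, 2 or 3 (adjusted p = 0.124, 0.125, 0.0648, 0.0973, 0.0704 and 0.136), or with upper-quartile scaling (adjusted p = 0.0789). ROR1, between 0.902 and 1.53 FPKM in SOT folds, between 0.555 and 1.18 FPKM in untreated folds and between 0.965 and 1.31 FPKM in normal folds, did not pass.

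Of the R-spondins and LGR receptors, 3 of 6 tested fell in untreated folds (50%, beside 15.1% of all genes), none rose, and none passed in SOT folds. RSPO3 (chromosome 12, 116691513 to 116777993), which is known from vessels and stroma, had 3.23, 1.96 and 2.82 FPKM in SOT folds, 2.39, 0.320 and 1.21 FPKM in untreated folds and 9.93, 15.9 and 6.05 FPKM in normal folds. All injured folds lay below the normal folds. RSPO3 fell in untreated folds (log2 fold change -3.00 with SE 0.67, adjusted p = 0.0111), a call lost without untreated replicate 3 (adjusted p = 0.0506), and missed the threshold in SOT folds (log2 fold change -2.10 with SE 0.64, adjusted p = 0.0575). In SOT folds it passed in 5 alternatives, among them DESeq2 (adjusted p = 0.00492) and the fit without untreated replicate 2 (adjusted p = 0.0228, within a range of 0.0228 to 0.163 over the fits that left out 1 library).

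RSPO1 (an unplaced scaffold), an R-spondin known from the gonad and skin, had 5.84, 4.21 and 3.14 FPKM in SOT folds, 3.56, 1.79 and 2.92 FPKM in untreated folds and 5.40, 8.39 and 5.29 FPKM in normal folds. RSPO1 fell in untreated folds (log2 fold change -1.17 with SE 0.34, adjusted p = 0.0302), whose libraries lay below the normal ones, and did not pass in SOT folds (log2 fold change -0.63 with SE 0.34, adjusted p = 0.226). The call was lost without untreated replicate 2 or 3 or normal replicate 1 or 2 (adjusted p = 0.0949, 0.0859, 0.0538 and 0.0971). LGR6 (chromosome 16, 69357463 to 69483413), a marker of epithelial stem cells in skin, had 0.382, 0.200 and 0.810 FPKM in SOT folds, 0.473, 0.117 and 0.268 FPKM in untreated folds and 1.36, 1.61 and 0.999 FPKM in normal folds. Every injured library lay below every normal one. LGR6 fell in untreated folds (log2 fold change -2.18 with SE 0.60, adjusted p = 0.0258) and did not pass in SOT folds (log2 fold change -1.63 with SE 0.59, adjusted p = 0.0927). The untreated call was lost without untreated replicate 2 or 3 or normal replicate 1 or 2 (adjusted p = 0.0702, 0.0904, 0.0634 and 0.0698). LGR6 passed as lower in SOT folds by DESeq2 (adjusted p = 0.0269), by limma on log2(FPKM + 1) (adjusted p = 0.0292) and without SOT replicate 3 (adjusted p = 0.0436), within a range of 0.0269 to 0.208 over the 17 alternatives.

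LGR4, the most abundant of this group, had 8.44, 13.8 and 14.6 FPKM in SOT folds, 8.48, 10.7 and 10.9 FPKM in untreated folds and 12.3, 10.3 and 13.0 FPKM in normal folds. Its groups overlapped and it did not pass. LGR5, a target of β-catenin that marks intestinal stem cells, had 0.446, 0.462 and 0.292 FPKM in SOT folds, 0.402, 0.377 and 0.475 FPKM in untreated folds and 0.647, 0.415 and 0.442 FPKM in normal folds. It was low and overlapping in all groups, and its log2 fold change in untreated against normal folds was -0.24 (95% interval -0.91 to 0.44, adjusted p = 0.572). RSPO2, between 0.366 and 2.26 FPKM in SOT folds, between 0.269 and 0.816 FPKM in untreated folds and between 0.508 and 1.12 FPKM in normal folds, did not pass. RSPO4 had 1 SOT and 1 normal library above 0, and its level in every untreated fold was 0. The summed level of the 7 genes was 21.4 ± 1.91 FPKM in SOT folds, 15.3 ± 1.37 FPKM in untreated folds and 31.5 ± 5.84 FPKM in normal folds, with no overlap between the groups. RSPO3 made up 12.7% ± 4.12 in SOT folds, 8.23% ± 6.26 in untreated folds and 32.7% ± 9.59 in normal folds.

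The widest change among all 51 genes was that of WIF1 (chromosome 4, 43863053 to 43948970), a secreted protein that binds WNT ligands and is known from cartilage. WIF1 had 11.1, 6.82 and 22.2 FPKM in SOT folds, 8.19, 6.11 and 4.64 FPKM in untreated folds and 173, 205 and 181 FPKM in normal folds. The normal libraries lay far above all injured ones, and the injured groups overlapped. WIF1 fell in untreated folds (log2 fold change -4.85 with SE 0.45, adjusted p = 0.000497) and in SOT folds (log2 fold change -3.91 with SE 0.43, adjusted p = 0.00317). In SOT folds against untreated folds its log2 fold change was 0.93 (95% interval 0.05 to 1.82, adjusted p = 0.376). Summed over the 9 antagonists, the level was between 152 and 228 FPKM in SOT folds, between 152 and 221 FPKM in untreated folds and between 319 and 339.9 FPKM in normal folds. WIF1 made up 7.54% ± 6.22 in SOT folds, 3.45% ± 0.746 in untreated folds and 56.2% ± 4.33 in normal folds.

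DKK3 (chromosome 1, 153710074 to 153755246), the member of the DKK family that does not bind LRP5 and LRP6, rose. It stood at 68.4, 95.3 and 55.5 FPKM in SOT folds, 57.0, 69.7 and 66.2 FPKM in untreated folds and 14.1, 28.7 and 33.2 FPKM in normal folds. All injured folds lay above all normal folds. DKK3 rose in untreated folds (log2 fold change 1.38 with SE 0.31, adjusted p = 0.0117) and in SOT folds (log2 fold change 1.43 with SE 0.31, adjusted p = 0.0199). The call in SOT folds was lost without SOT replicate 2 or normal replicate 2 (adjusted p = 0.0591 and 0.0523), or with the 2 groups alone in the fit (adjusted p = 0.0557). DKK3 made up 36.7% ± 6.73 in SOT folds, 36.3% ± 10.1 in untreated folds and 7.69% ± 3.16 in normal folds of the summed antagonist FPKM.

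SFRP5 (chromosome 18, 45920637 to 45927696), a decoy that binds WNT5A among other ligands, had 0.608, 0.711 and 0.714 FPKM in SOT folds, 0.551, 0.532 and 0.392 FPKM in untreated folds and 2.51, 4.57 and 1.37 FPKM in normal folds. The injured folds all lay below the normal ones. SFRP5 fell in untreated folds (log2 fold change -2.48 with SE 0.41, adjusted p = 0.00335) and in SOT folds (log2 fold change -2.16 with SE 0.40, adjusted p = 0.0120). SFRP2 (chromosome 15, 10007758 to 10015066), the antagonist with the highest mean level over the 9 libraries, had 106, 82.0 and 59.9 FPKM in SOT folds, 128, 53.6 and 79.5 FPKM in untreated folds and 129, 85.6 and 91.0 FPKM in normal folds. The groups overlapped, and its log2 fold changes were -0.20 (95% interval -0.99 to 0.60, adjusted p = 0.698) in untreated and -0.40 (95% interval -1.20 to 0.39, adjusted p = 0.460) in SOT folds against normal folds. SFRP1 was between 8.92 and 36.3 FPKM in SOT folds, between 16.7 and 19.3 FPKM in untreated folds and between 7.64 and 10.3 FPKM in normal folds. It did not pass in untreated folds (log2 fold change 1.11, adjusted p = 0.0804) or SOT folds (log2 fold change 1.37, adjusted p = 0.0639) in the fit over all 9 libraries. SFRP1 passed as higher in untreated folds by DESeq2 (adjusted p = 0.0372), with the 2 groups alone in the fit (adjusted p = 0.00218) and without SOT replicate 3 (adjusted p = 0.00371), within a range of 0.00218 to 0.191 over the 17 alternatives. In SOT folds it passed as higher by DESeq2 (adjusted p = 0.0121) and without SOT replicate 3 (adjusted p = 0.00264), within a range of 0.00264 to 0.170 over the 17 alternatives. SOT replicate 3 was its lowest SOT library.

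SFRP4 was between 2.20 and 3.37 FPKM in SOT folds, between 1.12 and 1.56 FPKM in untreated folds and between 1.73 and 1.94 FPKM in normal folds. All SOT libraries lay above the others, with a log2 fold change of 0.83 (95% interval 0.32 to 1.34, adjusted p = 0.223) against untreated folds and an adjusted p of 0.0178 by DESeq2, within a range of 0.0178 to 0.621 over the 17 alternatives. DKK4, a DKK protein induced by β-catenin in other tissues, was between 0.0381 and 0.631 FPKM in SOT folds, between 0.154 and 3.30 FPKM in untreated folds and between 0.0993 and 0.304 FPKM in normal folds. Untreated replicates 1 and 3 were its only libraries above 1 FPKM, and the log2 fold change in untreated against normal folds was 3.17 (95% interval 0.41 to 5.92, adjusted p = 0.0755). DKK4 passed there by DESeq2 (adjusted p = 0.0148), without untreated replicate 2 (adjusted p = 0.0425) and without SOT replicate 1 (adjusted p = 0.0493), within a range of 0.0425 to 0.207 over the fits that left out 1 library. DKK1 was between 0.484 and 2.63 FPKM in SOT folds, between 0.654 and 0.842 FPKM in untreated folds and between 0.472 and 2.48 FPKM in normal folds, and DKK2 between 1.57 and 2.27 FPKM in SOT folds, between 2.56 and 3.77 FPKM in untreated folds and between 0.982 and 3.79 FPKM in normal folds, and neither passed.

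Inside the cell, LEF1 (chromosome 15, 41363057 to 41501156), a partner of β-catenin in transcription and itself a target, had 3.92, 4.71 and 2.22 FPKM in SOT folds, 5.12, 6.24 and 5.93 FPKM in untreated folds and 0.863, 1.10 and 1.05 FPKM in normal folds. The groups did not overlap, and the SOT libraries lay between the others. LEF1 rose in untreated folds (log2 fold change 2.55 with SE 0.28, adjusted p = 0.000805) and in SOT folds (log2 fold change 1.74 with SE 0.27, adjusted p = 0.00758). The difference between SOT and untreated folds was -0.81 (95% interval -1.41 to -0.21, adjusted p = 0.285). LEF1 made up 7.11% ± 2.41 in SOT folds, 12.5% ± 0.597 in untreated folds and 2.17% ± 0.153 in normal folds of the FPKM summed over the 6 intracellular genes.

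AXIN2 (chromosome 19, 51720695 to 51748934), a scaffold of the destruction complex and a widely used readout of β-catenin signalling, had 4.08, 4.71 and 5.17 FPKM in SOT folds, 3.29, 3.04 and 2.71 FPKM in untreated folds and 4.61, 5.66 and 4.78 FPKM in normal folds. The untreated libraries lay below all others, and the SOT libraries overlapped with the normal ones. AXIN2 fell in untreated folds (log2 fold change -0.70 with SE 0.14, adjusted p = 0.00699) and did not pass in SOT folds (log2 fold change -0.22 with SE 0.14, adjusted p = 0.303). The difference between SOT and untreated folds was 0.48 (95% interval 0.17 to 0.80, adjusted p = 0.238), with an adjusted p of 0.0407 by DESeq2 and between 0.124 and 0.721 by edgeR over the fits that left out 1 library. LEF1 and AXIN2, both known targets of β-catenin, moved in opposite directions in untreated folds.

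AXIN1, the constitutive scaffold, had 18, 19.2 and 19.5 FPKM in SOT folds, 16.1, 18.5 and 19.2 FPKM in untreated folds and 17.8, 17.2 and 19.3 FPKM in normal folds. Its groups overlapped, and its log2 fold change in untreated against normal folds was 0.02 (95% interval -0.21 to 0.24, adjusted p = 0.923). A second locus described as axin-1 lies outside the rule, so its reads may be split. TCF7L1 was between 8.23 and 9.66 FPKM in SOT folds, between 8.86 and 9.15 FPKM in untreated folds and between 8.36 and 10.2 FPKM in normal folds, TCF7L2 between 7.78 and 10.2 FPKM in SOT folds, between 6.25 and 7.25 FPKM in untreated folds and between 7.30 and 11.0 FPKM in normal folds, and neither passed. TCF7L2 passed as lower in untreated folds with the replicate number as a block (adjusted p = 0.0417, within a range of 0.0417 to 0.319 over the 17 alternatives). TCF7, which is also expressed in T cells, had 3.37, 6.87 and 7.30 FPKM in SOT folds, 3.5, 3.56 and 3.54 FPKM in untreated folds and 4.17, 4.09 and 4.01 FPKM in normal folds. SOT replicates 2 and 3 stood above all other libraries. TCF7 did not pass in SOT against untreated folds (log2 fold change 0.57 with SE 0.24, adjusted p = 0.379), but did without SOT replicate 1 (adjusted p = 0.0185, within a range of 0.0185 to 0.768 over the 17 alternatives). Without that library TCF7 also passed as higher in SOT against normal folds (log2 fold change 0.67, adjusted p = 0.0158, within a range of 0.0158 to 0.549 over the 17 alternatives). The summed FPKM of 6 T cell markers was 12.3, 13.7 and 59.3 in SOT folds and between 9.78 and 15.7 in untreated folds, and its part in the TCF7 level was not tested.

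**Figure D3:**
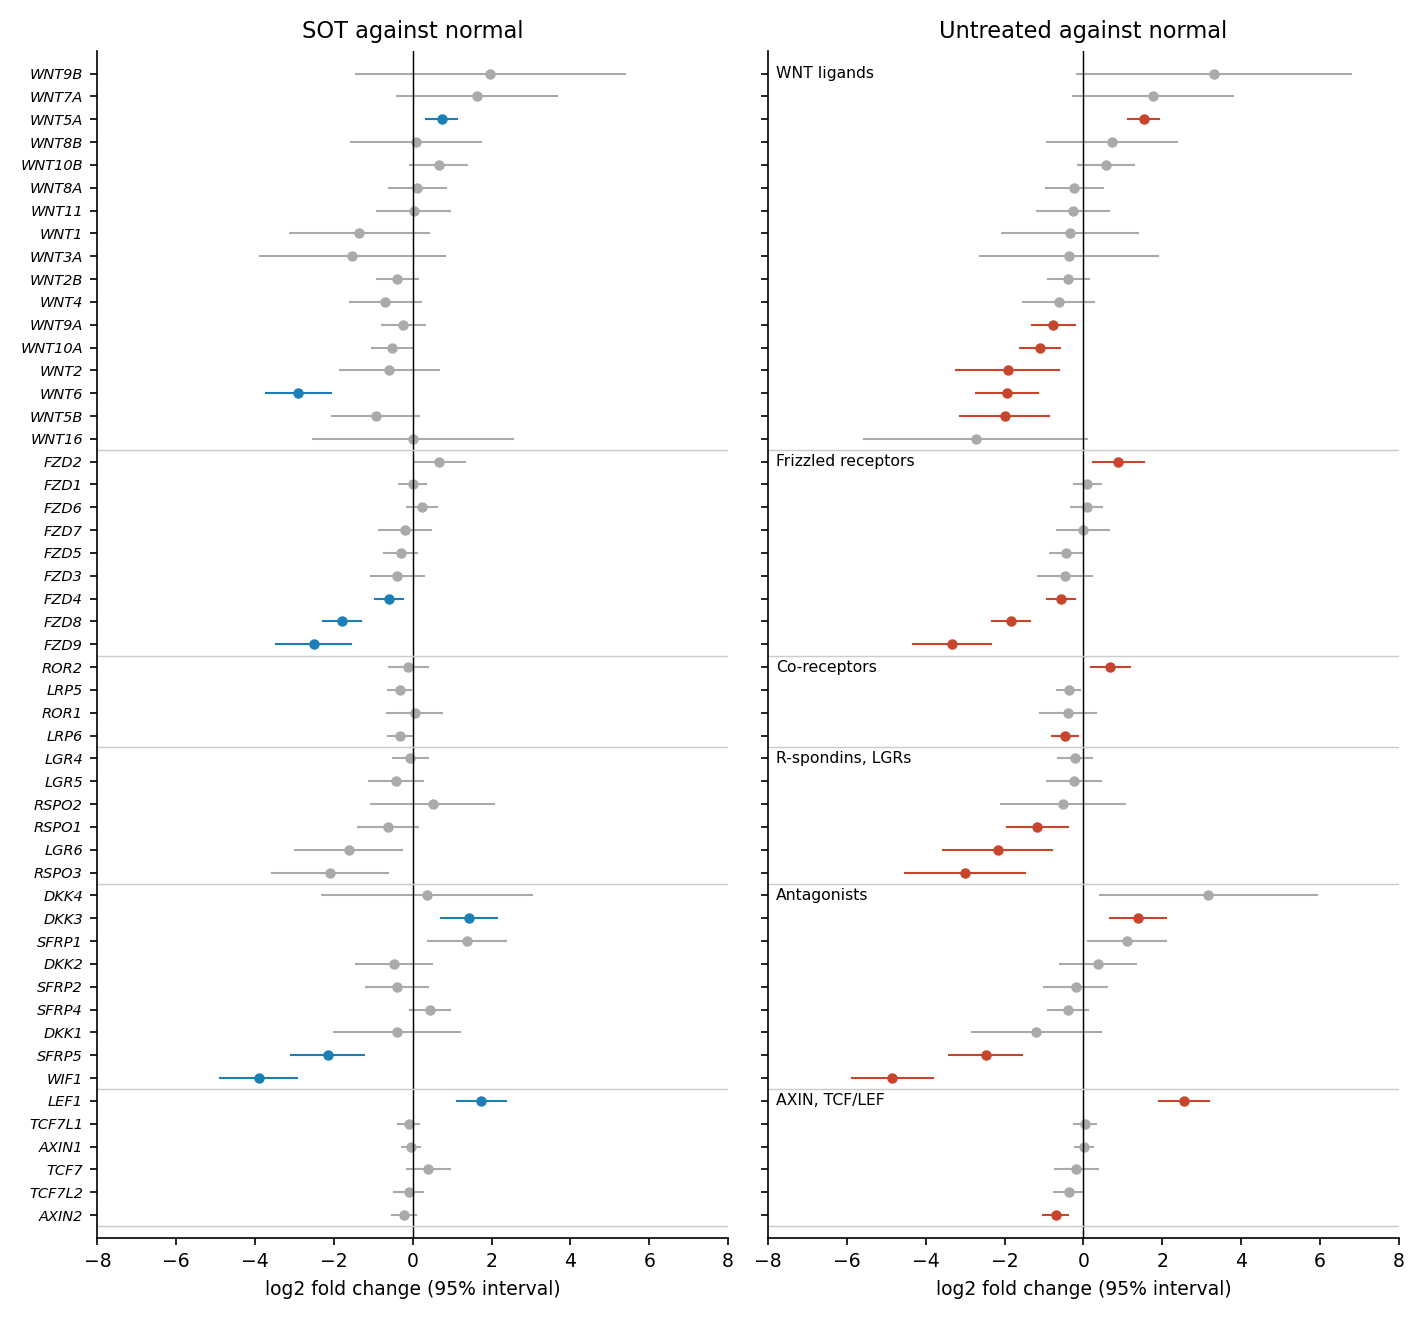
Log2 fold change with its 95% interval (edgeR, counts) of the 51 tested WNT genes in SOT against normal folds (left) and untreated against normal folds (right), grouped by role, with coloured points for an adjusted p under 0.05 and grey points for the others. In untreated folds 15 coloured points lie below 0 and 5 above, and in SOT folds 6 lie below and 3 above.

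Other genes of the pathway were read from a list of 66, of which 56 were in the table and 54 were tested. In untreated folds 11 rose and 11 fell, and in SOT folds 6 rose and 6 fell, which was 40.7% and 22.2% of them beside 32.8% and 16.7% of all genes. None passed in SOT against untreated folds by edgeR, while the ligase ZNRF3 (adjusted p = 0.0242) and the co-repressor TLE1 (adjusted p = 0.00993) passed as higher in SOT folds by DESeq2, and RNF43 passed as higher without SOT replicate 1 (adjusted p = 0.0338). The median log2 fold change over the 54 genes was 0.10 in untreated and 0.11 in SOT folds against normal folds.

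At the point of ligand release, WLS, the carrier that brings WNT proteins to the cell surface, had 43.4, 47.0 and 49.8 FPKM in SOT folds, 47.5, 71.1 and 63.6 FPKM in untreated folds and 26.3, 25.2 and 33.6 FPKM in normal folds. All injured folds lay above all normal ones. WLS rose in untreated folds (log2 fold change 1.13 with SE 0.17, adjusted p = 0.00236) and in SOT folds (log2 fold change 0.61 with SE 0.17, adjusted p = 0.0401). The SOT call was lost without untreated replicate 3, SOT replicate 1, 2 or 3 or normal replicate 1 or 2 (adjusted p = 0.0717, 0.0593, 0.0820, 0.0600, 0.123 and 0.121).

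Of 10 tested regulators outside the cell or at the receptor, 5 fell in untreated folds (50%) and 4 in SOT folds (40%), and none rose. Over all genes 15.1% fell in untreated folds and 7.67% in SOT folds. FRZB, a secreted frizzled-related protein known from cartilage, had 12, 3.07 and 27.1 FPKM in SOT folds, 12.2, 2.89 and 4.47 FPKM in untreated folds and 136, 283 and 119 FPKM in normal folds. The normal folds lay far above all injured ones. FRZB fell in untreated folds (log2 fold change -4.75 with SE 0.90, adjusted p = 0.00594) and in SOT folds (log2 fold change -3.79 with SE 0.86, adjusted p = 0.0226). The SOT call was lost without SOT replicate 1 or normal replicate 1 or 2 (adjusted p = 0.0597, 0.0537 and 0.0631). APCDD1, an inhibitor at the membrane, had 18.2, 15.1 and 30.0 FPKM in SOT folds, 18, 14.7 and 16.6 FPKM in untreated folds and 38.6, 63.6 and 60.9 FPKM in normal folds. It fell in both injured groups, in untreated folds (log2 fold change -1.69 with SE 0.27, adjusted p = 0.00308) and in SOT folds (log2 fold change -1.48 with SE 0.27, adjusted p = 0.0114). ZNRF3 had 2.91, 3.15 and 3.63 FPKM in SOT folds, 2.23, 1.87 and 1.46 FPKM in untreated folds and 4.70, 3.63 and 4.36 FPKM in normal folds. ZNRF3 fell in untreated folds (log2 fold change -1.16 with SE 0.18, adjusted p = 0.00289), did not pass in SOT folds (adjusted p = 0.0902), and differed between SOT and untreated folds by 0.66 (95% interval 0.25 to 1.07, adjusted p = 0.223).

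LRP4, a receptor that binds sclerostin, fell in untreated folds (log2 fold change -1.23 with SE 0.25, adjusted p = 0.00775) and in SOT folds (log2 fold change -0.86 with SE 0.25, adjusted p = 0.0469). The SOT call was lost without untreated replicate 2 or 3, SOT replicate 1 or 2 or normal replicate 1, 2 or 3 (adjusted p = 0.0536, 0.0792, 0.0880, 0.10, 0.113, 0.0840 and 0.104), or with the 2 groups alone in the fit (adjusted p = 0.0724), with limma on log2(FPKM + 0.1) (adjusted p = 0.0632) or with limma on log2(FPKM + 1) (adjusted p = 0.0573). SOSTDC1, an antagonist of WNT and BMP signals, fell in untreated folds (log2 fold change -1.40 with SE 0.37, adjusted p = 0.0228). This call was lost without untreated replicate 1, 2 or 3 or normal replicate 1 (adjusted p = 0.0671, 0.0639, 0.0572 and 0.0762). GPC3, a glypican that binds WNT proteins, fell in SOT folds (log2 fold change -1.01 with SE 0.27, adjusted p = 0.0394). Its call was lost without untreated replicate 1, 2 or 3, SOT replicate 1 or 2 or normal replicate 1 or 2 (adjusted p = 0.0556, 0.0556, 0.0704, 0.0898, 0.0841, 0.0681 and 0.109), or with the 2 groups alone in the fit (adjusted p = 0.0882), with limma on log2(FPKM + 0.1) (adjusted p = 0.0562) or with limma on log2(FPKM + 1) (adjusted p = 0.0570).

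Of 18 tested genes of the core machinery, 6 rose (33.3%) and 2 fell (11.1%) in untreated folds. In SOT folds 1 rose and 1 fell (5.56% each). Over all genes 17.7% rose and 15.1% fell in untreated folds, and 9.01% and 7.67% in SOT folds. CTNNB1, which encodes β-catenin, had 144, 189.8 and 172 FPKM in SOT folds, 146, 160.0 and 153 FPKM in untreated folds and 146, 131 and 139.8 FPKM in normal folds. Its groups of untreated and normal folds overlapped, with a log2 fold change of 0.17 (95% interval -0.12 to 0.46, adjusted p = 0.330). PYGO1, a co-activator of β-catenin, had 2.50, 2.18 and 2.39 FPKM in SOT folds, 3.02, 1.68 and 2.06 FPKM in untreated folds and 5.51, 5.18 and 4.87 FPKM in normal folds. PYGO1 fell in untreated folds (log2 fold change -1.17 with SE 0.21, adjusted p = 0.00439) and in SOT folds (log2 fold change -1.24 with SE 0.21, adjusted p = 0.00899), and every injured library lay below every normal one. BCL9, which ties PYGO proteins to β-catenin, rose in untreated folds (log2 fold change 0.72 with SE 0.13, adjusted p = 0.00555), as did the casein kinase CSNK1E (log2 fold change 0.45 with SE 0.10, adjusted p = 0.0104) and DVL3 (log2 fold change 0.47 with SE 0.11, adjusted p = 0.0130), the dishevelled protein that carries the signal from frizzled receptors. The DVL3 call was lost without untreated replicate 3 (adjusted p = 0.0583). The kinase CSNK1G1 was the core gene that rose in SOT folds (log2 fold change 0.52 with SE 0.11, adjusted p = 0.0171). That call was lost without normal replicate 1 or 2 (adjusted p = 0.0552 and 0.0582), or with the 2 groups alone in the fit (adjusted p = 0.0502). CSNK1G1 was also among the core genes that rose in untreated folds, a call that held in 10 of the 17 alternatives.

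Among planar polarity genes and other receptors, 2 of 12 (16.7%) rose in each injured group. Over all genes 17.7% rose in untreated folds and 9.01% in SOT folds. PTK7, a receptor of the polarity branch, had 34.9, 41.3 and 29.0 FPKM in SOT folds, 36.9, 55.2 and 52.6 FPKM in untreated folds and 19.1, 22.3 and 19.9 FPKM in normal folds. All injured folds lay above all normal ones. PTK7 rose in untreated folds (log2 fold change 1.27 with SE 0.19, adjusted p = 0.00234) and in SOT folds (log2 fold change 0.68 with SE 0.19, adjusted p = 0.0417). The SOT call was lost without untreated replicate 3, SOT replicate 1 or 2 or normal replicate 1, 2 or 3 (adjusted p = 0.0711, 0.0875, 0.124, 0.125, 0.0816 and 0.10), or with upper-quartile scaling (adjusted p = 0.0509) or with the 2 groups alone in the fit (adjusted p = 0.0523). PRICKLE2, a cytoplasmic polarity protein, rose in untreated folds (log2 fold change 0.96 with SE 0.22, adjusted p = 0.0115). CELSR1, a polarity cadherin, rose in SOT folds (log2 fold change 0.84 with SE 0.22, adjusted p = 0.0342). The CELSR1 call was lost without untreated replicate 2 or 3, SOT replicate 2 or normal replicate 1 or 2 (adjusted p = 0.0509, 0.0619, 0.0798, 0.0963 and 0.102), or with the 2 groups alone in the fit (adjusted p = 0.0752).

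Known targets and feedback inhibitors did not move as 1 group. Of 8 tested targets outside the 51 genes, 2 rose (25%) and 3 fell (37.5%) in untreated folds. In SOT folds 1 of them rose (12.5%) and 0 fell. Of 4 tested feedback inhibitors, 0 rose and 1 fell (25%) in untreated folds. In SOT folds 1 feedback inhibitor rose and 1 fell (25% each). Over all genes 17.7% rose and 15.1% fell in untreated folds, and 9.01% and 7.67% in SOT folds. CCN4, a matricellular protein named as WNT1-inducible, had 8.82, 13.6 and 3.33 FPKM in SOT folds, 17.6, 13.9 and 16.2 FPKM in untreated folds and 1.00, 1.42 and 1.43 FPKM in normal folds. The injured folds all lay above the normal ones, with SOT replicate 3 the lowest injured library. CCN4 rose 12.6-fold in untreated folds (log2 fold change 3.66 with SE 0.47, adjusted p = 0.00138) and 6.22-fold in SOT folds (log2 fold change 2.64 with SE 0.45, adjusted p = 0.00953). CD44, a hyaluronan receptor, rose in untreated folds (log2 fold change 0.85 with SE 0.17, adjusted p = 0.00720). NKD1, a feedback inhibitor induced by β-catenin, had 2.06, 3.26 and 2.99 FPKM in SOT folds, 1.66, 2.26 and 1.74 FPKM in untreated folds and 4.15, 4.6 and 4.12 FPKM in normal folds. Every injured library lay below every normal one. NKD1 fell in untreated folds (log2 fold change -1.15 with SE 0.21, adjusted p = 0.00466) and in SOT folds (log2 fold change -0.75 with SE 0.20, adjusted p = 0.0403). The SOT call was lost without untreated replicate 1 or 3, SOT replicate 1, 2 or 3 or normal replicate 1, 2 or 3 (adjusted p = 0.0530, 0.0693, 0.0997, 0.0556, 0.0733, 0.0982, 0.110 and 0.0772), or with the 2 groups alone in the fit (adjusted p = 0.0746), with limma on log2(FPKM + 0.1) (adjusted p = 0.0627) or with limma on log2(FPKM + 1) (adjusted p = 0.0509).

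SP5, a transcription factor induced by β-catenin, had 1.15, 0.230 and 0.669 FPKM in SOT folds, 0.497, 0.0932 and 0.131 FPKM in untreated folds and 1.55, 2.84 and 1.42 FPKM in normal folds. SP5 fell in untreated folds (log2 fold change -2.94 with SE 0.79, adjusted p = 0.0228), a call lost without untreated replicate 2 or 3 or normal replicate 2 (adjusted p = 0.0735, 0.0882 and 0.0679). CCN5, a relative of CCN4 in the matrix, had 1.83, 1.52 and 1.42 FPKM in SOT folds, 0.591, 0.198 and 0.502 FPKM in untreated folds and 2.08, 2.19 and 0.639 FPKM in normal folds. All SOT libraries lay above all untreated ones, with a log2 fold change of 1.72 (95% interval 0.43 to 3.00, adjusted p = 0.287). CCN5 fell in untreated folds (log2 fold change -1.87 with SE 0.56, adjusted p = 0.0349), a call lost without untreated replicate 2 or 3 or normal replicate 1 or 2 (adjusted p = 0.103, 0.0899, 0.0979 and 0.10), or with the 2 groups alone in the fit (adjusted p = 0.0549) or with the replicate number as a block (adjusted p = 0.0613). TNFRSF19, a receptor induced by β-catenin, fell in untreated folds (log2 fold change -0.73 with SE 0.24, adjusted p = 0.0452). That call was lost without untreated replicate 2 or 3, SOT replicate 2 or normal replicate 1, 2 or 3 (adjusted p = 0.146, 0.142, 0.0540, 0.132, 0.0674 and 0.0749), or with the replicate number as a block (adjusted p = 0.0577). The feedback inhibitor DACT2 rose in SOT folds (log2 fold change 1.06 with SE 0.29, adjusted p = 0.0417). The DACT2 call was lost without untreated replicate 1, 2 or 3, SOT replicate 1 or 2 or normal replicate 1 or 2 (adjusted p = 0.0607, 0.0597, 0.0736, 0.0965, 0.0634, 0.115 and 0.123), or with the 2 groups alone in the fit (adjusted p = 0.0956) or with the replicate number as a block (adjusted p = 0.0710).

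**Figure D4:**
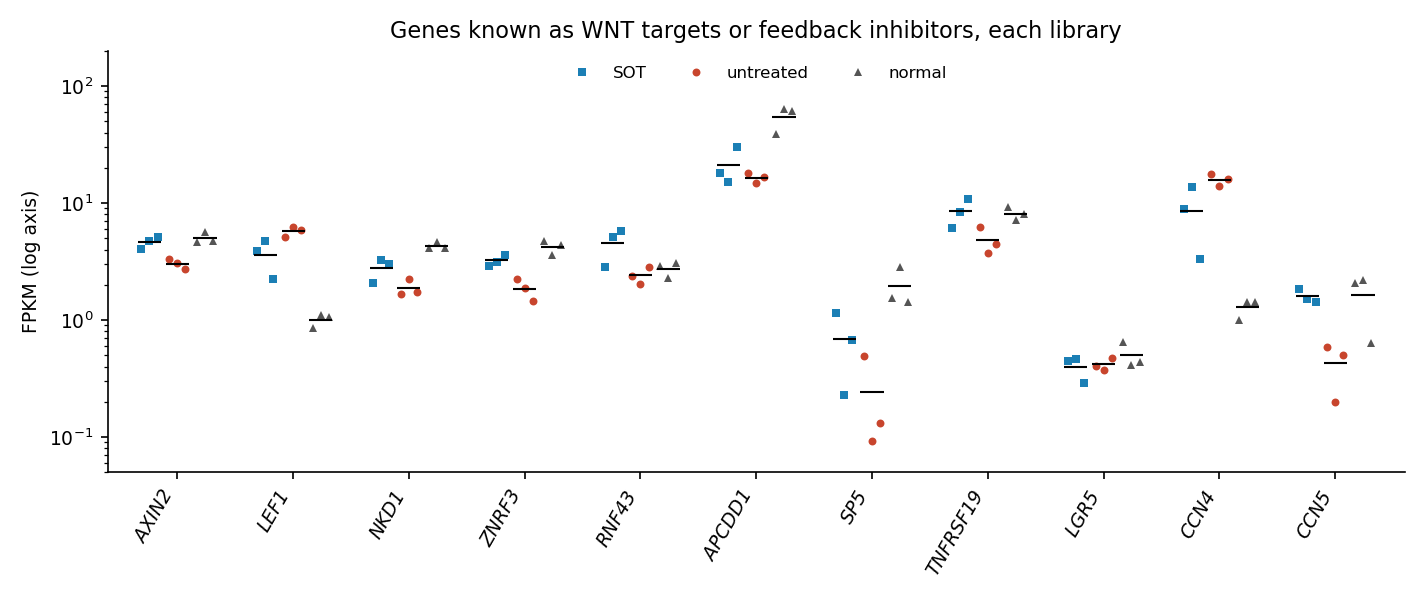
FPKM on a log axis of selected genes known as targets or feedback inhibitors of WNT signalling, with 1 point per library (SOT squares, untreated circles, normal triangles) and bars at the means of 3 libraries. ZNRF3, RNF43 and APCDD1 come from the list of regulators outside the cell or at the receptor. Not drawn are CD44, which rose in untreated folds, and DACT2, which rose in SOT folds. Targets and feedback inhibitors of the pathway list that did not pass are also not drawn. LEF1 and CCN4 are highest in the untreated folds and lowest in the normal folds, while AXIN2, NKD1, ZNRF3, APCDD1 and SP5 have their lowest means in the untreated folds.

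Markers of other tissues moved with these genes. The marker counts here and below stand beside the shares of all genes: 17.7% rose and 15.1% fell in untreated folds. In SOT folds 9.01% of all genes rose and 7.67% fell. Of 7 cartilage markers in the table, 6 fell in each injured group, and their summed FPKM was between 29.1 and 94.8 FPKM in SOT folds, between 15.8 and 27.5 FPKM in untreated folds and between 373 and 785 FPKM in normal folds. COL2A1, the collagen that defines cartilage, had 7.03, 4.39 and 48.4 FPKM in SOT folds, 7.59, 4.70 and 2.06 FPKM in untreated folds and 299, 444 and 214 FPKM in normal folds. SOT replicate 3 was the highest injured library in COL2A1 and also in WIF1, FRZB, FZD9, LGR6 and, by a small margin, SFRP5. In RSPO3 and SP5 the highest injured library was SOT replicate 1. The place of SOT replicate 3 was not particular to cartilage. It was also the highest injured library in the summed FPKM of nerve and Schwann cell (77.4), muscle (3109), stratified epithelium (7331) and T cell (59.3) markers. The sums of macrophage, neutrophil, fibroblast, airway and gland, endothelium, mural cell and adipocyte markers were highest in another injured library. No cartilage marker was at 0 in every library of a group. Of 8 nerve and Schwann cell markers, 6 fell in untreated folds and 5 in SOT folds, and their sum was between 36.2 and 77.4 FPKM in SOT folds, between 27.9 and 40.4 FPKM in untreated folds and between 269 and 589 FPKM in normal folds. Of 5 muscle markers, 3 fell in untreated folds and 1 in SOT folds, with sums between 736 and 3109 FPKM in SOT folds, between 256 and 2442 FPKM in untreated folds and between 6071 and 7539.9 FPKM in normal folds. The part of these markers in the fall of WIF1, FRZB, FZD9, RSPO3, SP5, SFRP5 and LGR6 was not tested.

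Beside the genes that rose, 7 of 7 macrophage markers rose in untreated folds and 6 in SOT folds, with sums between 218 and 344 FPKM in SOT folds, between 539 and 638 FPKM in untreated folds and between 73.9 and 94.6 FPKM in normal folds. All 6 neutrophil markers rose in untreated folds and 5 in SOT folds, with sums between 1512 and 4306 FPKM in SOT folds, between 4322 and 6374 FPKM in untreated folds and between 247 and 922 FPKM in normal folds. Of 8 fibroblast genes, 5 rose and 2 fell in untreated folds, and 3 rose and 1 fell in SOT folds, with sums between 4196 and 8869.6 FPKM in SOT folds, between 8159 and 8593 FPKM in untreated folds and between 2729.6 and 3186 FPKM in normal folds. The macrophage and the neutrophil sums both lay lowest in normal folds, highest in untreated folds and between them in SOT folds. Neither overlapped between groups, and the order was that of WNT5A and LEF1. The mean sums of fibroblast, endothelium, mural cell and adipocyte markers had the same order, with overlap between groups. Endothelium means were 95.4 FPKM in normal, 191 FPKM in SOT and 249 FPKM in untreated folds. Among SOT libraries, WNT5A, LEF1 and the fibroblast sum were highest in replicate 2, and the macrophage and neutrophil sums in replicate 1. The part of any of these markers in the level of WNT5A or LEF1 was not tested. In untreated folds 1 of 7 markers of stratified epithelium rose and 1 fell, 2 of 7 of airway and gland epithelium rose and 1 fell, 3 of 6 of endothelium rose, 1 of 5 of mural cells rose and 1 fell, 1 of 6 of T cells rose and 1 fell, and 1 of 4 of adipocytes rose and 2 fell. In SOT folds the same lists had 1, 2, 3, 0, 0 and 1 markers that rose and 0, 1, 0, 0, 0 and 1 that fell.

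**Figure D5:**
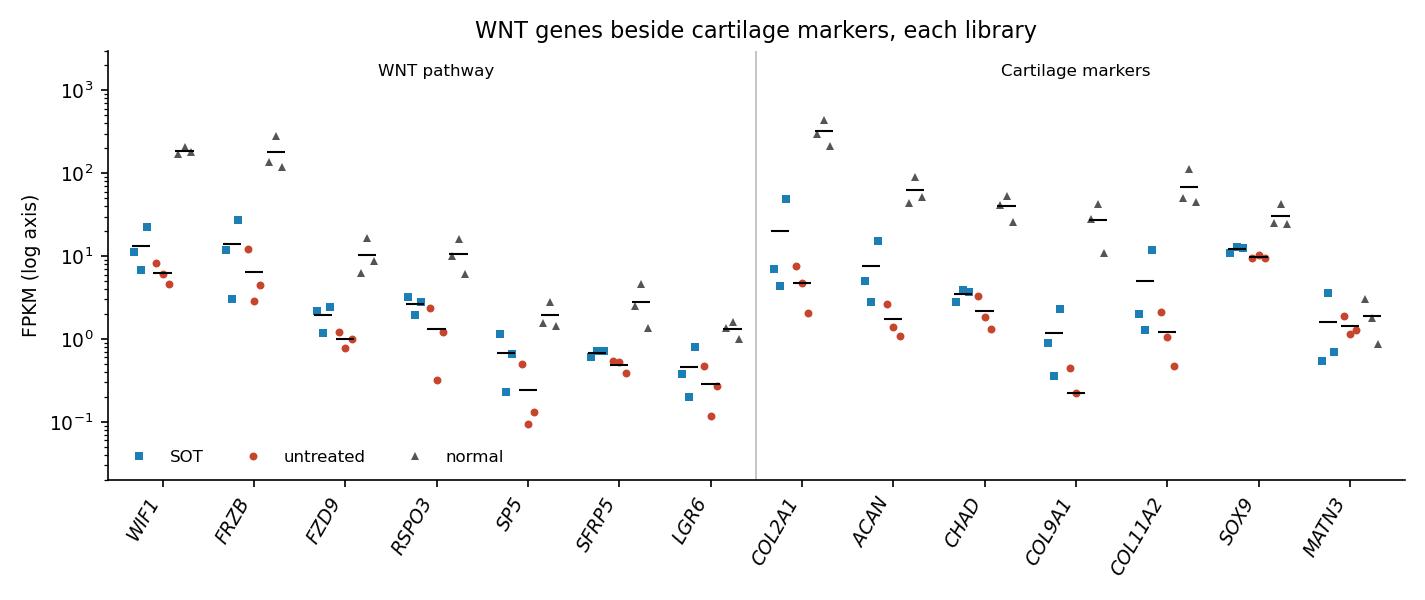
FPKM on a log axis of the 7 WNT genes that fell by over 2 on the log2 scale in untreated folds (left) and of 7 cartilage markers (right), with 1 point per library (SOT squares, untreated circles, normal triangles) and bars at the means of 3 libraries. COL9A1 is at 0 in untreated replicate 3 and has no point there. The normal folds stand above all injured folds for the 7 WNT genes and for the markers other than MATN3. The 7 genes were picked for their fall in untreated folds, so their place below the normal folds there follows largely from the choice. Nerve and muscle markers, some of which also fell, are not drawn.

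The SOT libraries differed more among themselves than the others did. Over the 36 WNT genes with a mean of at least 1 FPKM, the median SD of log2 FPKM was 0.398 in SOT folds, 0.167 in untreated folds and 0.227 in normal folds. The SD was larger in SOT than in untreated folds for 28 of the 36 (77.8%), and for 73.8% of 13455 genes in all. WNT5B (3.10, 7.47 and 14.5 FPKM), WNT11 (7.43, 18 and 30.4 FPKM) and SFRP1 (36.3, 26.2 and 8.92 FPKM) are examples among the SOT libraries.

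In SOT folds against untreated folds, 11 of the 51 tested WNT genes had intervals that did not include 0. Such an interval goes with an unadjusted edgeR p under 0.05, which 12.6% of all genes reached. WNT5A, ROR2, LEF1, WNT6 and DKK4 were on the lower side, at log2 fold changes of -0.79, -0.79, -0.81, -0.97 and -2.80. On the higher side WIF1, WNT2, SFRP4, WNT10A, TCF7 and AXIN2 had log2 fold changes of 0.93, 1.32, 0.83, 0.58, 0.57 and 0.48. None of these passed after adjustment by edgeR, with adjusted p between 0.162 and 0.383. For FZD8, FZD4 and DKK3 the SOT and untreated folds differed by 0.04 (-0.43 to 0.51), -0.03 (-0.38 to 0.32) and 0.04 (-0.66 to 0.74).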

How the data were processed

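The authors deposited a table of whole-number read counts and of FPKM values per gene for each of the 9 libraries, per the file headers. The submitters' processing notes name cutadapt 1.9, HISAT2 2.0.4, StringTie 1.3.4d, edgeR and the build OryCun2.0. Here counts were filtered with filterByExpr, scaled by TMM and fitted over all 9 libraries with edgeR 4.0.16 in R 4.3.3 (quasi-likelihood test, Benjamini-Hochberg adjustment over 17344 genes). The script was tested on simulated data. FPKM gave levels, means, SDs and shares, with no test. Alternatives used DESeq2 1.42.0, limma 3.58.1 on log2 of the deposited FPKM plus a pseudocount of 0.1 or 1, other scalings, no filter, 2 groups only, the replicate number as a block, and each library left out. A count of 0 in a library allows up to 3 counts, or 0.0557 to 0.0692 CPM, for counting error only. Whether counting used strand is not given in the sources used here, so reads of overlapping genes on opposite strands could be mixed.

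The genes, roles, pathway list and marker lists were chosen with earlier results of these data known. Among the 53 genes, values in every library were given for those that passed, the most abundant gene of each role and known targets of β-catenin. Those with a difference of 2 or more (log2) that did not pass were given by range. Other pathway genes were named where they passed, at most 4 per sub-list and comparison, some by fold change alone. SOSTDC1 and TNFRSF19 passed in untreated folds and were named beyond the limit of 4. CTNNB1, RNF43 and TLE1 were named outside this rule, after their values were seen. Table rows were matched by symbol, and 6 list genes through RefSeq gene records.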

Additional observations from a re-analysis of the deposited data

How the results depend on the processing

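No call on a WNT gene changed direction in any of the 17 alternatives, and 10 of 20 calls in untreated folds and 6 of 9 in SOT folds against normal folds held in all of them. In untreated against normal folds, the number of WNT genes that rose was 3 with upper-quartile scaling and 8 with the 2 groups alone in the fit. Leaving out 1 library gave 3 to 6 WNT genes that rose and 7 to 16 that fell, and 1915 to 3254 higher and 1230 to 2785 lower over all genes. The lowest of these came without untreated replicate 3 (1915 and 1230), then without untreated replicate 2 (2002 and 1416), and 1677 were lower without normal replicate 1. In SOT against normal folds, all genes gave 2461 higher and 2348 lower by DESeq2, 692 and 886 with the 2 groups alone, and 577 to 1987 and 558 to 1235 with 1 library left out. WNT genes that rose numbered 1 with the 2 groups alone and 1 to 4 with 1 library left out, and those that fell 5 to 8. In SOT against untreated folds, all genes gave 229 higher and 453 lower by DESeq2, 4 and 23 by limma on log2(FPKM + 1), and 1 lower with upper-quartile scaling. There were 0 lower with the 2 groups alone, 0 with the replicate block and 0 by limma on log2(FPKM + 0.1). Leaving out 1 library gave 0 to 76 higher and 0 to 321 lower, the highest without SOT replicate 1 (76 and 321). WNT genes were 2 higher and 2 lower by DESeq2, and 0 to 1 higher and 0 to 0 lower with 1 library left out. The causes of these differences were not tested. Limma on log2(FPKM + 0.1) moved the median of all genes by 0.117 in SOT against untreated folds.

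With the replicate number as a block, 5 WNT genes rose and 16 fell in untreated folds, 3 rose and 6 fell in SOT folds against normal folds, and 0 passed in SOT against untreated folds. Over all genes the block gave 2893 higher and 2633 lower in untreated folds and 1236 and 1389 in SOT folds against normal folds. Deviations of libraries with the same number correlated at -0.048 to 0.267 over 9 pairs, and those with other numbers at -0.276 to 0.174 over 18, so the numbers were not taken to pair the libraries. With 3 libraries a group, 1 library could decide a call.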

Other observations

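A locus described as frizzled-10, whose gene symbol lies outside the naming of the WNT genes, had 5.92, 3.23 and 5.15 FPKM in SOT folds, 3.01, 1.31 and 2.10 FPKM in untreated folds and 4.15, 4.57 and 6.63 FPKM in normal folds. All untreated libraries lay below the SOT and normal ones. It fell in untreated against normal folds by edgeR (log2 fold change -1.22, adjusted p = 0.0308). A second locus described as axin-1 had 7.03, 7.98 and 7.66 FPKM in SOT folds, 6.10, 7.54 and 7.28 FPKM in untreated folds and 7.29, 6.74 and 7.16 FPKM in normal folds, a level below that of AXIN1 in every library. The locus described as Wnt-2b-like had 0.992, 1.13 and 1.63 FPKM in SOT folds, 1.58, 1.91 and 1.66 FPKM in untreated folds and 1.33, 1.22 and 2.20 FPKM in normal folds, more than WNT2B in every library.

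Besides WNT6 and WNT10A, neighbouring WNT genes lay on chromosomes 4 and 19. WNT10B and WNT1 lie 5087 bases apart on chromosome 4, on opposite strands, and neither passed in any comparison. WNT9B and WNT3 lie 43337 bases apart on chromosome 19, also on opposite strands, and stood at 0.0269 FPKM or less and 0.0699 FPKM or less in the normal folds.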
